A study of Mus musculus with 28 samples.

Results

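The Kruppel-like factors described here are 10 mouse genes, Klf2, Klf3, Klf4, Klf5, Klf6, Klf7, Klf9, Klf10, Klf11 and Klf13. They were taken by symbol from 47729 gene IDs in the count tables, without regard to their values, and all 10 were among the 17299 genes that passed the filter on low counts. RNA was sequenced from epidermal stem cells of C57BL/6 mouse skin, sorted as integrin α6 positive, integrin β1 positive, Sca1 positive and CD34 negative cells, in 16 libraries that form 8 groups of 2. Mice of postnatal day 60 received topical imiquimod, a Toll-like receptor 7 agonist that provokes psoriasis-like inflammation, or a control cream (vanicream) for 6 days. The groups were control and imiquimod skin at the end of treatment (day 6), control and post-imiquimod skin labelled as taken 30 days after treatment (day 30), and wounds made at that time in both kinds of skin and taken 6 h or 12 h later. All mice were labelled female, no group carried a transgene or deletion, and the labels do not say how many animals went into a library, so p-values measure the spread between these libraries.

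Kruppel-like factors are transcription factors with a C-terminal set of zinc fingers that binds CACCC boxes and related GC-rich sites in promoters and enhancers. The fingers are alike throughout the family, and the N-terminal parts differ and recruit either coactivators or the CtBP and Sin3 corepressors. In epidermis Klf4 is known for its part in building the skin barrier, Klf5 for basal cell proliferation, and Klf9 for its response to glucocorticoids and the circadian clock. Klf2, Klf4, Klf6 and Klf10 are also known as genes whose short-lived transcripts are induced within minutes of a stimulus.

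The promoters of 4 members are shown because these genes gave the clearest opposite patterns below: Klf2, Klf9 and Klf11 were lower in inflamed cells, and Klf7 was higher. Each line gives the 250 bases before the transcription start, from RefSeq on GRCm38.p6, written 5′ to 3′ in the direction of the gene. Capitals mark the CACCC box that the family is known to bind and the GC box GGGCGG that it shares with the Sp factors, or the reverse complement of either. The stretches lie at chr8:72318812-72319061 on the plus strand for Klf2, chr19:23140976-23141225 on the plus strand for Klf9, chr12:24651121-24651370 on the plus strand for Klf11 and chr1:64121390-64121639 on the minus strand for Klf7.
Klf2: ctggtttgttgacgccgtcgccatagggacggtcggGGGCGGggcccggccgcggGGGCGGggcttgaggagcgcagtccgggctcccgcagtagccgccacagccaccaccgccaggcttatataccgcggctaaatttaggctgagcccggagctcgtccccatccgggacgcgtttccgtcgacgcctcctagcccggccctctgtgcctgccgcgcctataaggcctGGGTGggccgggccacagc
Klf9: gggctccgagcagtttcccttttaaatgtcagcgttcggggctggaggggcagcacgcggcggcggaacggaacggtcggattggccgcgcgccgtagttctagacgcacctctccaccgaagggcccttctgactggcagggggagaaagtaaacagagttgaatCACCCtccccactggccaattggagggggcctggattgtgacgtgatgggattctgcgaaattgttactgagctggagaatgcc
Klf11: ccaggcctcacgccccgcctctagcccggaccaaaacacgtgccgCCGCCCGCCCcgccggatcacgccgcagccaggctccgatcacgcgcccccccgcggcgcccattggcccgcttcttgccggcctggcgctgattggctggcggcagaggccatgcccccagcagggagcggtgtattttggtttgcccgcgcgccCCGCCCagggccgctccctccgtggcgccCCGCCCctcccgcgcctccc
Klf7: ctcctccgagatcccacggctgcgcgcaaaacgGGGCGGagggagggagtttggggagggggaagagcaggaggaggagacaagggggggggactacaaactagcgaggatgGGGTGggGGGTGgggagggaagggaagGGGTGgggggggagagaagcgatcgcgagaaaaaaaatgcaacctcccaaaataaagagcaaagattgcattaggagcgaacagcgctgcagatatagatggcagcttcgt

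RefSeq windows of 300 bases (250 before the start and 50 after it) were matched for 8 of the 10 members, all but Klf5 and Klf10. GGGCGG stood in 7 of these 8 windows, against 35.7% of all 32851 promoter windows of that length, and the exception was Klf9. CACCC stood in 5 of 8, against 57.5% of all windows. Klf3 held most of both, with 5 CACCC and 6 GGGCGG matches, which overlap in places. TGACG, the core of a CRE site, stood in 5 of 8 (20.8% of all windows), CACGTG, an E-box read by clock factors, in 3 of 8 (7.15%), TGANTCA, the AP-1 motif, in 1 of 8 (7.81%, the Klf9 window), and TATAAA in none of the 8 (13.6%). All motifs were searched on both strands. The 8 windows held 58.3% to 77.7% G and C, against a median of 52.7% over all windows, and the motifs rich in G and C were not compared at equal base composition. Klf2, Klf9 and Klf11, which moved together in the data, had no searched motif that stood in all 3 of their windows, and a match is a description of letters, not a site shown to be bound.

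Keratins of basal keratinocytes were abundant, and Cd34, which the sort excludes, was low. Levels of the genes of the positive sort markers are not given. Krt5 was between 14056 and 29560 CPM (the library's counts scaled to a common total) and Krt14 between 11340 and 31575 CPM in the 16 libraries, while Cd34 was between 0.193 and 10.4 CPM. Library totals ran from 23623968 to 76993427 counts, so that even the lowest Klf value, Klf2 in library 1 of 12 h control wounds, rested on 109 reads. Both day 30 libraries numbered 1 held Y-linked reads (7830 and 6023) and at most 1 read of Xist although labelled female, and library 1 of day 6 imiquimod had 7.65% mitochondrial counts. Markers of other cells differed with day and treatment. The summed level of 7 macrophage markers was 9.71 to 17.1 CPM in day 6 controls, 62.2 and 65.8 CPM in day 6 imiquimod, 1.41 to 1.97 CPM at day 30 and 3.12 to 7.66 CPM in wounds. The sum of 6 fibroblast markers was 159 to 570 CPM in the 4 day 6 libraries and 138 CPM in day 30 post-imiquimod library 1, against 1.63 to 3.73 CPM in the other 3 day 30 libraries and 1.57 to 55.4 CPM in wounds. The sum of 5 follicle bulge markers was 7487 and 11663 CPM in day 6 controls, 525 and 575 CPM in day 6 imiquimod, 4801 to 9697 CPM at day 30 and 983 to 2470 CPM in wounds. With imiquimod at day 6, however, 1 of these 5 markers rose and 1 fell (median log2 change -0.16). In 6 h control wounds 2 rose and 2 fell (median 1.88), so the sums do not describe each marker. The part of these cells in the results below was not tested, and in bulk RNA fewer cells of a type and less RNA per cell cannot be told apart. Klf2 is best known from endothelial cells and T cells, whose marker sums reached at most 8.88 CPM (6 genes) and 1.3 CPM (5 genes) in any library.

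**Figure D1:**
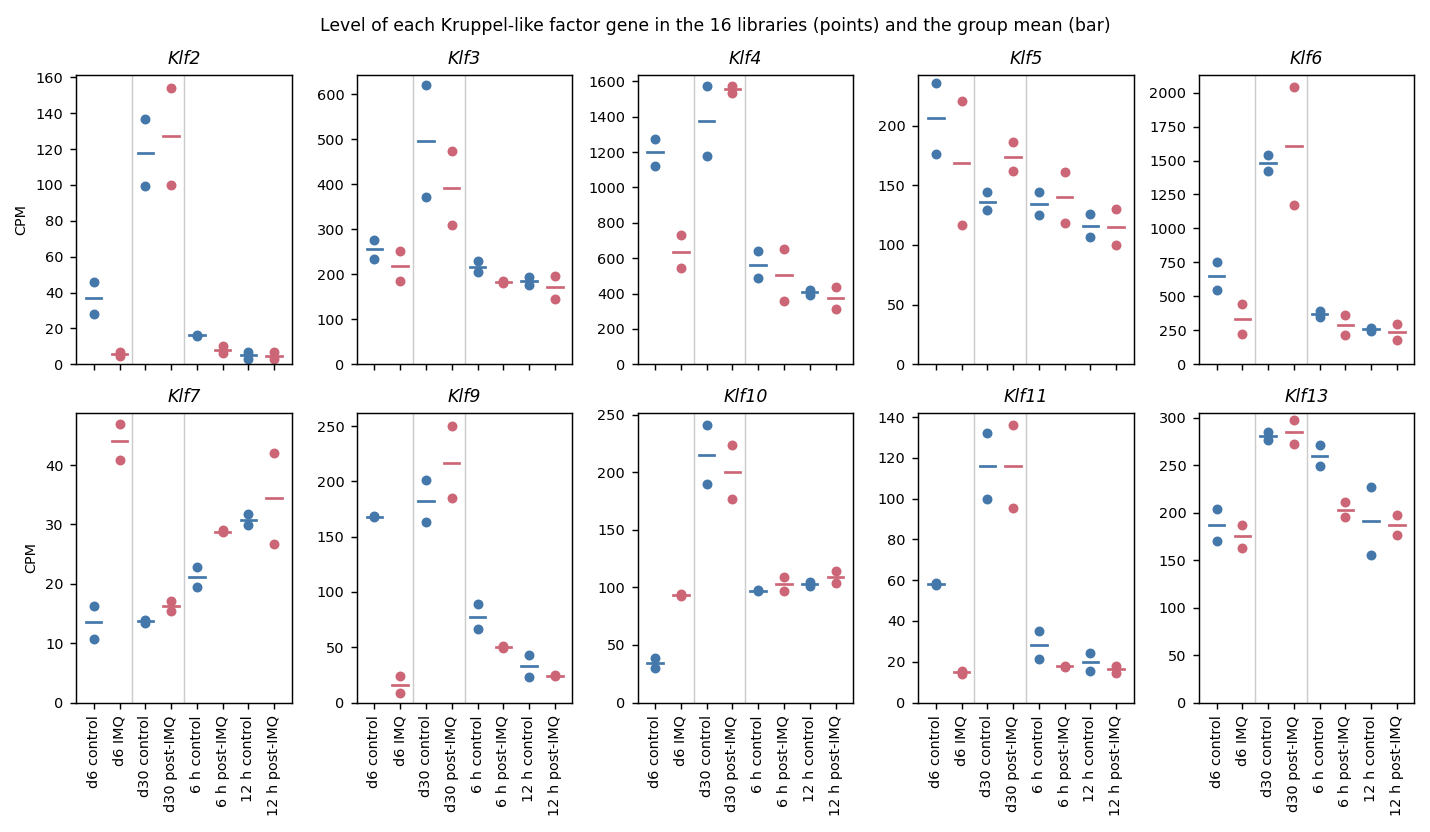
Level in CPM (vertical axes, linear, starting at 0) of the 10 genes in each of the 16 libraries (points) with the mean of the 2 libraries of a group (bars), blue for control and red for imiquimod or post-imiquimod skin, with the 6 h and 12 h groups being wounds. All panels other than those of Klf5 and Klf7 have their highest library at day 30, whereas Klf7 is highest in day 6 imiquimod at 40.9 and 47 CPM.

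Inflamed cells at the end of imiquimod treatment were compared with control cells of the same day. Klf9, Klf2 and Klf11 fell 8.77-fold, 5.73-fold and 3.37-fold, and Klf7 and Klf10 rose 3.77-fold and 3.14-fold. Thus 5 of 10 members passed the test (adjusted p under 0.05 over all genes, edgeR), against 36.6% of all genes tested, and 3 of 10 were lower, against 15% of all genes. The median log2 change of the 10 genes was -0.36, beside 0.10 over all genes.

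Klf9, a Sin3-recruiting repressor that glucocorticoids induce, was at 168 and 169 CPM in the day 6 controls and at 8.36 and 24.1 CPM after imiquimod. Its log2 change was -3.13 ± 0.47 (SE, n = 2 libraries per group, adjusted p = 0.00052). Klf2, a factor known for keeping endothelial cells and lymphocytes quiescent, was at 27.9 and 46.1 CPM in controls and at 4.36 and 6.69 CPM in imiquimod cells (-2.52 ± 0.52, adjusted p = 0.00341). In both genes every imiquimod library lay far below both controls. Klf11, a TGF-β-inducible repressor, was at 57.5 and 58.7 CPM against 14.1 and 15.6 CPM (-1.75 ± 0.25, adjusted p = 0.000218), which again left a wide gap between the groups.

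Klf7, an activator studied mostly in neurons and fat cells, went the other way, from 16.2 and 10.7 CPM in controls to 47 and 40.9 CPM in imiquimod cells (1.91 ± 0.22, adjusted p = 5.4e-05). Klf10, the nearest relative of Klf11 and like it induced by TGF-β, rose from 38.7 and 30.1 CPM to 93.9 and 92.2 CPM (1.65 ± 0.18, adjusted p = 3.51e-05). The related pair Klf10 and Klf11 therefore changed in opposite directions in the same libraries, and neither pair of groups overlapped.

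The other 5 members did not pass the threshold at day 6. Klf4, the barrier factor, was at 1119 and 1276 CPM in controls and 542 and 730 CPM after imiquimod (-0.68 ± 0.32, adjusted p = 0.11), with no overlap between the groups. Klf6, a broadly expressed injury-response factor, was at 755 and 549 CPM against 225 and 444 CPM (-0.72 ± 0.39, adjusted p = 0.175), also without overlap. With the library number fitted as a block, a fit that called 48.9% of all genes, Klf4 passed (-0.71, adjusted p = 0.00953). Without the low-count filter, which called 20.9% of genes, Klf4 and Klf6 passed (-0.66 and -0.69, adjusted p = 0.0105 and 0.00522). Klf6 passed without library 2 of day 6 imiquimod (-1.50, adjusted p = 0.0207), as did Klf5 (-0.78, adjusted p = 0.0437). Klf3, which recruits CtBP, Klf5, the proliferation factor, and Klf13, a Sin3-recruiting factor, had log2 changes of -0.00 ± 0.26, -0.04 ± 0.30 and 0.13 ± 0.19, and the libraries of the 2 groups overlapped for each of them.

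At the time labelled day 30, imiquimod-experienced cells were compared with cells that had only seen the control cream, to ask whether any difference lasted. No member passed, with log2 changes from -0.42 ± 0.26 (Klf3) to 0.28 ± 0.30 (Klf5), and no member had an unadjusted p under 0.05. The background was as low, at 0.0116% of genes. Klf9 was at 201 and 163 CPM in control and 185 and 250 CPM in post-imiquimod cells, and Klf7 at 13.9 and 13.4 CPM against 15.4 and 17.1 CPM. The imiquimod effect at day 6 differed from that at day 30 in 5 of 10 members, against 22.5% of genes. These were Klf9 (-3.30 ± 0.62 on the log2 scale), Klf2 (-2.53 ± 0.69), Klf11 (-1.67 ± 0.35), Klf7 (1.75 ± 0.31) and Klf10 (1.83 ± 0.25), each in the direction of its day 6 change. With the library number as a block Klf4 passed too (-0.83, adjusted p = 0.0316), beside 34.3% of all genes. The call for Klf2 was lost without library 2 of day 6 control, library 1 of day 6 imiquimod, library 2 of day 30 control or library 2 of day 30 post-imiquimod (adjusted p = 0.0889, 0.0783, 0.0559 and 0.0614).

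Day 30 control cells also differed from day 6 control cells, a comparison added after the levels had been seen. Klf10 was 7.9-fold higher at day 30, at 241 and 190 CPM (log2 change 2.98 ± 0.19, adjusted p = 4.61e-07). Klf2 (4.04-fold), Klf6 (2.85-fold), Klf11 (2.51-fold), Klf3 (2.43-fold) and Klf13 (1.89-fold) were higher as well. That is 6 of 10 members higher and none lower, against 21.3% of genes in either direction and 11.8% higher. Klf4, Klf5, Klf7 and Klf9 had log2 changes of 0.54, -0.27, 0.35 and 0.44 and did not pass. Klf4 passed with the library number as a block (0.52, adjusted p = 0.0482), beside 35.5% of all genes. Klf6 lost its call without any 1 of the 4 libraries (log2 change from 1.3 to 1.76). Klf2 lost it without library 1 of day 6 control or library 1 of day 30 control (1.70 and 1.71). Klf3 and Klf13 lost theirs without library 2 of day 6 control (1.16 and 0.79). Without both day 30 libraries numbered 1, which held Y-linked reads, Klf2 and Klf6 lost their calls (adjusted p = 0.0689 and 0.051). The same comparison raised 10 of 20 immediate-early genes, among them Btg2 (2.41 ± 0.41), Fosl1 (2.30 ± 0.53) and Ier3 (2.20 ± 0.53). It lowered all 7 macrophage markers and 4 of 6 fibroblast markers, beside 1634 of all 17299 genes lower. The part of these genes and cells in the differences of the members was not tested. Age, harvest day and time since treatment differ between these groups and cannot be told apart.

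Wounds were compared with unwounded day 30 skin of the same treatment history. In control skin 7 of 10 members were lower at 6 h, against 34.7% of genes in either direction and 16.7% lower. Klf2 had fallen 8.13-fold, Klf11 4.54-fold, Klf6 4.41-fold, Klf4 2.68-fold, Klf9 2.6-fold, Klf3 2.5-fold and Klf10 2.45-fold. At 12 h 8 of 10 were lower and Klf7 was higher, against 30.8% of genes in either direction and 14.3% lower. The median log2 change of the 10 genes was -1.35 at 6 h and -1.78 at 12 h, beside 0.01 and 0.02 over all genes. The 6 h and 12 h comparisons share the day 30 control libraries.

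**Figure D2:**
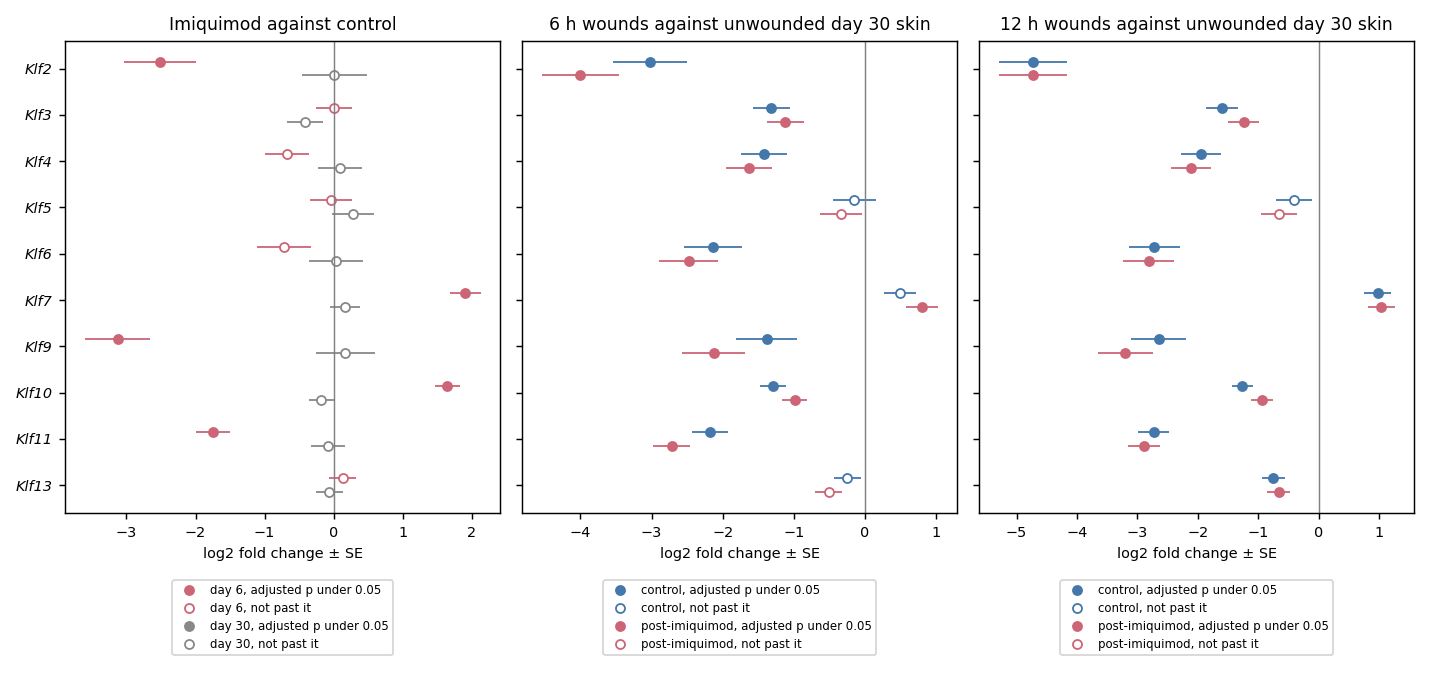
Log2 fold change with its SE (horizontal axes) of the 10 genes for imiquimod against control at day 6 and day 30 (left) and for wounds against unwounded day 30 skin at 6 h (middle) and 12 h (right), with filled circles for adjusted p under 0.05. Klf10 and Klf7 lie to the right of 0 at day 6, Klf10 lies to the left of it in all 4 wound comparisons, and the day 30 values stay between -0.42 and 0.28.

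Among the activators, Klf2 moved farthest in wounds, from 137 and 99.5 CPM in day 30 control cells to 15.8 and 16.3 CPM at 6 h and 2.95 and 7.05 CPM at 12 h. The log2 changes were -3.02 ± 0.52 (adjusted p = 0.0014) and -4.73 ± 0.56 (adjusted p = 0.000222). Klf6 went from 1423 and 1538 CPM to 348 and 390 CPM and then 245 and 268 CPM (-2.14 ± 0.41 and -2.72 ± 0.42, adjusted p = 0.00192 and 0.000622). For both genes no wound library came near the unwounded range. Klf4 was at 1571 and 1177 CPM unwounded, 487 and 642 CPM at 6 h and 393 and 420 CPM at 12 h (-1.42 ± 0.32 and -1.95 ± 0.33, adjusted p = 0.00459 and 0.000865). Klf5 was at 129 and 144 CPM unwounded, 125 and 144 CPM at 6 h and 107 and 126 CPM at 12 h, and did not pass at either time (adjusted p = 0.727 and 0.324). Its 12 h value passed with the library number as a block (-0.42, adjusted p = 0.0437), which called 42.6% of all genes.

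Klf7 was again the exception, at 13.9 and 13.4 CPM unwounded, 22.9 and 19.5 CPM at 6 h and 29.9 and 31.7 CPM at 12 h. The 12 h rise passed (0.98 ± 0.22, adjusted p = 0.00496), and the 6 h value did not (0.49 ± 0.22, adjusted p = 0.0998, and 0.0497 with the block, which called 46% of all genes). The 3 pairs of libraries did not overlap.

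The repressor genes fell by different amounts. Klf11 went from 99.9 and 132 CPM to 34.9 and 21.5 CPM at 6 h and 15.3 and 24.2 CPM at 12 h (-2.18 ± 0.25 and -2.73 ± 0.26, adjusted p = 7.51e-05 and 3.03e-05). Klf9 went from 201 and 163 CPM to 88.7 and 66.6 CPM and 23.2 and 42.6 CPM (-1.38 ± 0.43 and -2.65 ± 0.45, adjusted p = 0.0312 and 0.00163). All wound libraries of both genes lay below both unwounded ones. The 6 h call for Klf9 was lost without library 1 of day 30 control, library 1 of 6 h control wounds or library 2 of them (adjusted p = 0.12, 0.0807 and 0.172), and without both day 30 libraries numbered 1 (0.12). Klf3 was at 371 and 620 CPM unwounded, 229 and 204 CPM at 6 h and 176 and 194 CPM at 12 h (-1.32 ± 0.26 and -1.60 ± 0.26, adjusted p = 0.0021 and 0.000814). Klf13 moved least of those that passed, from 285 and 277 CPM to 249 and 271 CPM at 6 h (-0.25 ± 0.19, adjusted p = 0.342) and 155 and 227 CPM at 12 h (-0.75 ± 0.19, adjusted p = 0.0113). Its 12 h call was lost without library 1 of 12 h control wounds (adjusted p = 0.133), without both day 30 libraries numbered 1 (0.0531) and in a fit of the compared libraries alone (0.0598, 23% of all genes called).

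Klf10 had a narrow spread in wounds, with 96.8 and 97.4 CPM at 6 h and 101 and 105 CPM at 12 h in control skin. Against day 30 control cells at 241 and 190 CPM this was a fall (-1.29 ± 0.18 and -1.26 ± 0.18, adjusted p = 0.000193 and 0.000291). The 8 wound libraries of both treatments spanned 96.8 to 114 CPM. This was near the 93.9 and 92.2 CPM of inflamed day 6 cells and far above the 38.7 and 30.1 CPM of day 6 controls. CPM is without the TMM scaling between libraries that the tests used, so small gaps in it are not read as an order.

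The unwounded group used as reference therefore decided the sign for Klf10. Against day 6 control cells, in comparisons added after the levels had been seen, Klf10 was 3.22-fold higher in 6 h control wounds (1.69 ± 0.18, adjusted p = 2.4e-05) and 3.3-fold higher in 12 h control wounds (1.72 ± 0.18, adjusted p = 2.89e-05). With this reference 5 of 10 members passed at 6 h, against 39.9% of genes, and 7 of 10 at 12 h, against 37.5%. Klf7 was higher at both times (0.84 ± 0.22 and 1.33 ± 0.22), and Klf4 (-0.89 ± 0.32 and -1.42 ± 0.32) and Klf11 (-0.86 ± 0.25 and -1.41 ± 0.25) were lower at both. Klf13 was higher at 6 h (0.67 ± 0.19), and Klf2 (-2.72 ± 0.52), Klf9 (-2.21 ± 0.45) and Klf6 (-1.21 ± 0.40) were lower at 12 h. Klf2 at 6 h (-1.01 ± 0.49, adjusted p = 0.125) and Klf3 at both times (-0.04 ± 0.26 and -0.32 ± 0.26) did not pass. With the library number as a block Klf2 passed at 6 h (-0.95, adjusted p = 0.0149) and Klf5 at 6 h and 12 h (-0.42 and -0.68, adjusted p = 0.035 and 0.00419), in fits that called 51.5% and 50.3% of all genes. With the compared libraries alone (36.1% and 46.3% of all genes called) Klf2, Klf6 and Klf9 passed at 6 h (adjusted p = 0.0179, 0.0462 and 0.0041) and Klf5 at 12 h (0.0112), and with DESeq2 (42.2% called) Klf9 passed at 6 h (0.046). Without the low-count filter Klf2, Klf6 and Klf9 passed at 6 h (adjusted p = 2.22e-05, 0.0219 and 2.06e-05, 22.6% called). Klf5 passed without it at 12 h (0.00755, 21.9% called). Of the genes past the threshold with both references, only Klf10 had opposite signs. Klf13 was past it with 1 reference at each time, higher against day 6 at 6 h and lower against day 30 at 12 h. The 6 h calls against day 6 control depended on single libraries. Each library of day 6 control and of 6 h control wounds was left out in turn, which leaves 1 library in that group. The log2 change then ran from -1.16 to -0.65 for Klf4, -1.19 to -0.6 for Klf11 and 0.57 to 1.18 for Klf7. It ran from 0.54 to 0.81 for Klf13 and 1.52 to 1.89 for Klf10. Klf4 lost its 6 h call in all 4 of these cases, and Klf10 kept it. Klf7, Klf11 and Klf13 lost theirs in at least 1 case. Klf6 lost its 12 h call without library 1 of day 6 control (adjusted p = 0.157) or either library of 12 h control wounds (0.144 and 0.106).

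**Figure D3:**
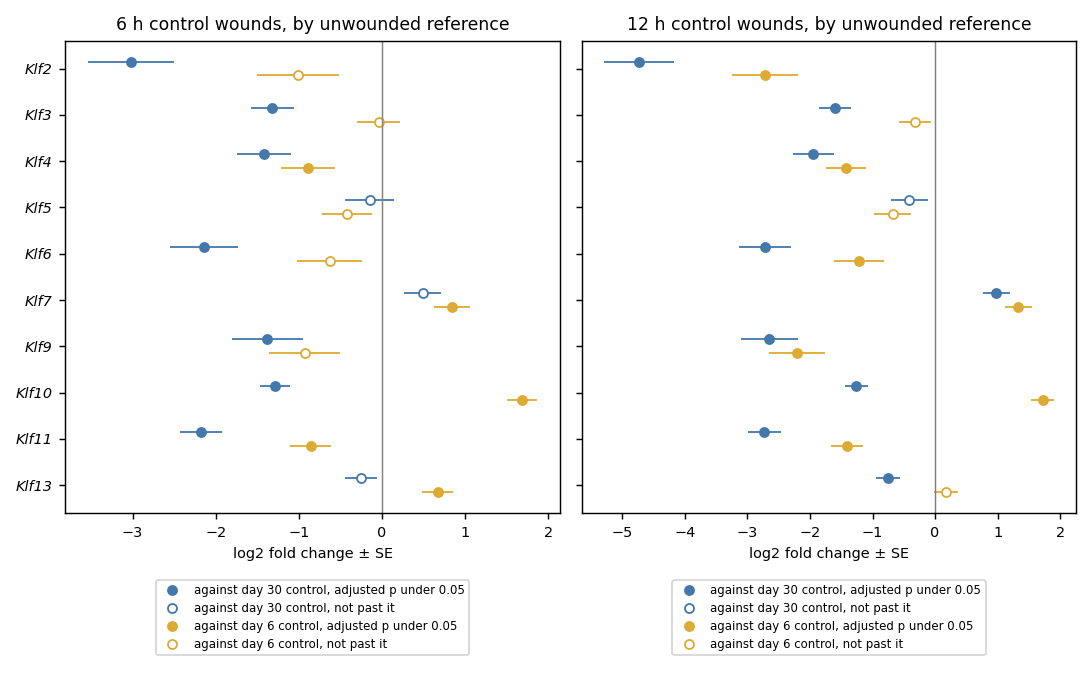
Log2 fold change with its SE (horizontal axes) of the 10 genes in 6 h (left) and 12 h (right) control wounds, against day 30 control cells (blue) and against day 6 control cells (yellow), with filled circles for adjusted p under 0.05. Klf10 changes sign with the reference, from -1.29 to 1.69 at 6 h and from -1.26 to 1.72 at 12 h. Klf13 also does, from -0.25 to 0.67 and from -0.75 to 0.17, with 1 value of each pair past the threshold. Klf4 and Klf11 are below 0 and past the threshold in all 4. Klf2, Klf3, Klf5, Klf6 and Klf9 are also below 0 in all 4, without passing in each.

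In post-imiquimod skin 8 of 10 members passed at 6 h, against 38.7% of genes in either direction, and the 7 lower ones compare with 18.6% of genes lower. At 12 h 9 of 10 passed, against 37.7%, and the 8 lower ones compare with 17.3%. Klf2 was at 100 and 154 CPM unwounded, 6.05 and 10.1 CPM at 6 h and 3.17 and 6.58 CPM at 12 h (-4.00 ± 0.54 and -4.73 ± 0.56). Klf9 was at 185 and 250 CPM, then 49.6 and 50.9 CPM, then 24.1 and 24.6 CPM (-2.13 ± 0.44 and -3.20 ± 0.46). Klf11 was at 95.5 and 136 CPM, then 17.6 and 18.1 CPM, then 17.8 and 14.5 CPM (-2.72 ± 0.26 and -2.89 ± 0.26). In each of these genes the wound libraries lay far below the unwounded ones. Klf6 (-2.48 ± 0.41 and -2.81 ± 0.42), Klf4 (-1.63 ± 0.32 and -2.11 ± 0.33), Klf3 (-1.12 ± 0.26 and -1.24 ± 0.26) and Klf10 (-0.99 ± 0.18 and -0.94 ± 0.18) were lower at both times, and Klf13 at 12 h (-0.66 ± 0.19, lost without library 1 of 12 h post-imiquimod wounds, adjusted p = 0.116). Klf13 at 6 h was just outside the threshold (-0.51 ± 0.19, adjusted p = 0.052) and passed with the library number as a block (adjusted p = 0.0194, 49.8% of all genes called), with the compared libraries alone (0.0452, 33.9% called) and with DESeq2 (0.0399, 41.3% called). Klf7 was higher at 6 h (0.80 ± 0.22) and 12 h (1.04 ± 0.22), beside 20.1% and 20.3% of all genes higher. Its 6 h call was lost without library 1 or library 2 of day 30 post-imiquimod or library 2 of 6 h post-imiquimod wounds (adjusted p = 0.0688, 0.0633 and 0.0724), and without both day 30 libraries numbered 1 (0.0609). Klf5 did not pass at 12 h (-0.65 ± 0.30, adjusted p = 0.11), but did with the library number as a block (adjusted p = 0.00496, 48.4% of all genes called) and with the compared libraries alone (0.0256, 34.3% called). It passed without the low-count filter as well (0.0124, 21.9% called).

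The direct comparisons of post-imiquimod with control wounds, which bear on whether past inflammation altered the response to injury, called no member after low-count filtering. At 6 h the background was 0.0347% of genes (6 genes by edgeR, and 132 by DESeq2, none of them a member). At an unadjusted p under 0.05 there were 2 of 10 members and 6.31% of all genes. Klf11 was at 17.6 and 18.1 CPM in post-imiquimod against 34.9 and 21.5 CPM in control wounds (-0.62 ± 0.25, adjusted p = 0.695), and Klf7 at 29 and 28.7 CPM against 22.9 and 19.5 CPM (0.48 ± 0.22, adjusted p = 0.78). Klf2 at 6 h had the greatest difference, with 6.05 and 10.1 CPM against 15.8 and 16.3 CPM (-0.96 ± 0.50, adjusted p = 0.873). Without the low-count filter it passed (-0.96, adjusted p = 0.000622), in a fit that called 1.43% of genes. At 12 h the log2 differences ran from -0.38 (Klf9) to 0.22 (Klf7) and no member had an unadjusted p under 0.05. By edgeR 0% of genes were called at 12 h, with 425 at an unadjusted p under 0.05, and DESeq2 called 27 genes, none of them a member. Averaged over day 30, 6 h and 12 h the background was 0.202% of genes, and the members ran from -0.31 ± 0.14 (Klf11, adjusted p = 0.74) to 0.29 ± 0.13 (Klf7, adjusted p = 0.706). These 2 had an unadjusted p under 0.05, as did 6.61% of all genes. The differences between the wound responses of the 2 kinds of skin ran from -0.98 ± 0.69 (Klf2) to 0.31 ± 0.31 (Klf7) at 6 h and from -0.55 ± 0.60 (Klf9) to 0.36 ± 0.37 (Klf3) at 12 h. By edgeR no member passed at either time, no member had an unadjusted p under 0.05, and 0% of genes passed at 6 h and 0% at 12 h (1057 and 503 genes at an unadjusted p under 0.05). DESeq2 called 32 and 1 genes and no member. With an SE of 0.69, a difference as large as -0.98 was not detectable for Klf2 with these libraries. The SEs of the other members for this 6 h difference ran from 0.25 (Klf10) to 0.60 (Klf9).

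Between 6 h and 12 h of wounding no member passed in control skin (background 0.647% of genes) or post-imiquimod skin (0.173%). The largest changes were those of Klf2 (-1.71 ± 0.50, adjusted p = 0.165) and Klf9 (-1.28 ± 0.43, adjusted p = 0.217) in control skin, and of Klf9 in post-imiquimod skin (-1.07 ± 0.43, adjusted p = 0.404). In control skin 5 of 10 members had an unadjusted p under 0.05, against 13.8% of all genes, and in post-imiquimod skin 1 of 10, against 10.7%. Klf2 and Klf9 did pass in control skin with DESeq2 (adjusted p = 0.0057 and 0.0292), which called 4.03% of all genes, and Klf2 with the library number as a block (-1.87, adjusted p = 0.0114), which called 7.49%. Klf9 passed in post-imiquimod skin with the compared libraries alone (-1.06, adjusted p = 0.0122), beside 0.896% of all genes. Without the low-count filter Klf2 and Klf9 passed in control skin (adjusted p = 7.31e-13 and 7.85e-09, 3.18% of genes called). They also passed without it in post-imiquimod skin (0.0413 and 6.33e-06, 2.03% called).

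The order of the 8 groups by mean level in CPM summarises each gene. CPM is without the TMM scaling between libraries that the tests used. Those factors were 1.142 and 1.146 in day 6 controls and 0.8839 and 0.936 in day 30 controls. Overlaps given here, above all between day 6 and day 30 cells, may therefore not hold on the scale of the tests. Klf2, Klf6 and Klf11 were highest at day 30, next in day 6 controls and lowest in wounds and inflamed cells, with no overlap between day 30 and day 6 control libraries or between day 6 controls and the group below. Klf9 had day 30 post-imiquimod, day 30 control and day 6 control cells at the top with overlapping values, and then fell to 6 h control wounds (77.6 ± 15.7 CPM), 6 h post-imiquimod wounds (50.3 ± 0.971), 12 h control (32.9 ± 13.7) and post-imiquimod wounds (24.4 ± 0.309) and inflamed day 6 cells (16.2 ± 11.1, SD, n = 2). Klf4 had the same upper 3 groups, all overlapping with their neighbours, and a gap below day 6 control cells. Klf7 had the inverse order, with inflamed day 6 cells first (44 ± 4.28 CPM) and day 30 and day 6 control cells last (13.7 ± 0.372 and 13.5 ± 3.93 CPM, overlapping). Klf10 had day 6 control cells alone at the bottom. Klf5 varied least in order, with neighbouring groups overlapping at every step and a range of 100 to 236 CPM, and Klf13 had a ratio of only 1.93 between its highest and lowest library. The ratio was 52.3 for Klf2, 29.9 for Klf9, 11.4 for Klf6, 9.69 for Klf11 and 8.01 for Klf10.

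**Figure D4:**
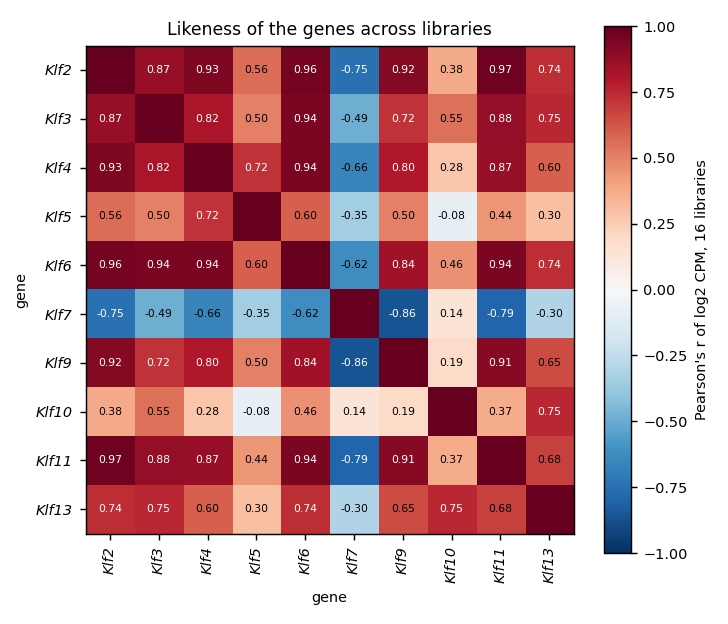
Pearson's r of log2 CPM between each pair of the 10 genes over the 16 libraries (colour and printed value). Klf2, Klf6 and Klf11 share values of 0.94 to 0.97, Klf7 is negative with every member other than Klf10, and Klf10 reaches 0.75 with Klf13.

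Likeness over the 16 libraries was described by Pearson's r of log2 CPM, which the libraries' depth, groups and scaling share, so r is given without a p. The closest pair was Klf2 and Klf11 (r = 0.97), then Klf2 and Klf6 (0.96). Klf7 and Klf9 were the most opposed (-0.86), and Klf10 and its relative Klf11 had only 0.37. Among 9995 other genes, those most like Klf2 were Atf3 (0.975), Nr4a2 (0.971) and Fosb (0.968), all immediate-early transcription factors. Those most like Klf4 were Trib1, Zfp36 and Fos (0.971, 0.970 and 0.963), and those most like Klf6 were Dnajb1, Ifrd1 and Zfp36 (0.983, 0.975 and 0.975). Klf3 was nearest to Rnd3 (0.975), Tnfaip3 (0.962) and Bcl10 (0.953), and Klf13 to Midn (0.934), Rabgef1 (0.931) and Cdh1 (0.930). Klf9 was nearest to Mtmr3 (0.975), Ets2 (0.969) and Wwtr1 (0.968), and Klf11 to Pink1 (0.974), Hspb8 (0.973) and Cers6 (0.966). Klf7 was nearest to Nek6 (0.960), Teddm3 (0.960) and Fhl2 (0.957), Klf10 to Id1 (0.966), Homer1 (0.928) and Ptpa (0.922), and Klf5 less closely to Bri3 (0.831), Map3k10 (0.818) and Sesn2 (0.817).

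Atf3, Fosb, Fos and Zfp36, named above, belong to a list of 20 immediate-early genes that was not chosen by r. Of these, 9 fell and 2 rose with imiquimod at day 6, 11 and 16 fell in control wounds at 6 h and 12 h, and 15 and 18 fell in post-imiquimod wounds, with none higher in wounds. Over all genes 15% fell and 21.6% rose at day 6, 16.7% and 14.3% fell in control wounds at 6 h and 12 h, and 18.6% and 17.3% fell in post-imiquimod wounds. The median log2 change of the list was -1.18 at day 6 and -1.13 and -2.13 in control wounds, beside 0.10, 0.02 and 0.02 over all genes. Atf3 was at 3464 and 2673 CPM in day 6 controls, 310 and 900 CPM in inflamed cells, 5879 to 7770 CPM in the 4 day 30 libraries and 219 to 1379 CPM in the 8 wound libraries. Fos was at 5193 to 6684 CPM at day 30 and 991 to 2520 CPM in wounds. Immediate-early genes are known to respond quickly to injury, growth factors and the handling of live cells, and the part of any of these in the levels of Klf2, Klf4 and Klf6 was not tested.

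Of 16 other Klf and Sp genes 10 were tested, and 3 and 4 of these were lower in control wounds at 6 h and 12 h, with none higher, beside 16.7% and 14.3% of all genes lower and 18% and 16.5% higher. Klf16, a Sin3-type repressor, was at 148 and 108 CPM in day 30 control cells and 53.3 and 73.3 CPM in 6 h control wounds (-1.15 ± 0.23, adjusted p = 0.00216). In day 6 controls it was at 51.4 and 57.2 CPM, a range that overlapped with 6 h control wounds. This overlap is in CPM, without the TMM scaling that the test used, and may not hold with it. Sp4 was lower with imiquimod at day 6 (-1.28 ± 0.20) and in control wounds at 6 h (-1.04 ± 0.19) and 12 h (-1.15 ± 0.19). Klf8 (-1.46 ± 0.28) was lower at 6 h, and Klf12 (-1.52 ± 0.46) at 12 h. Klf17 had no read in any library, and Klf14, Sp5, Sp7, Sp8 and Sp9 reached at most 0.238 CPM (Klf14).

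Genes known to act on or with the family moved in both directions, and their counts stand beside 21.6% of all genes that rose and 15% that fell at day 6, and 18% and 16.7% in 6 h control wounds. Of 10 cofactor genes, 4 rose and 2 fell with imiquimod at day 6, with Ctbp2, the CtBP corepressor that Klf3 binds, at 1.27 ± 0.19 and the acetyltransferase gene Kat2b at -0.56 ± 0.17. In 6 h control wounds 2 rose and 3 fell, with Kat2b at -1.24 ± 0.17, Crebbp, an acetyltransferase, at -0.81 ± 0.14 and Ctbp2 at 0.82 ± 0.19. Of 7 ubiquitin ligase genes 4 fell and 1 rose at day 6, led by Fbxo32 (-3.19 ± 0.49) and Btrc (-1.03 ± 0.20). Of 8 genes of the ERK5, MEF2 and FOXO route that is known to drive Klf2, 2 fell at day 6, Mef2a (-1.50 ± 0.28) and Foxo1 (-1.49 ± 0.16), and 2 fell in 6 h control wounds, Mef2a (-1.03 ± 0.27) and Map3k3 (-0.65 ± 0.15). The 2 of 8 called at each time had all fallen, beside 15% and 16.7% of all genes lower and 36.6% and 34.7% called in either direction. Of 5 known Klf2 targets in vessels and lymphocytes 3 were tested, and Thbd, the thrombomodulin gene, rose at day 6 (3.39 ± 0.33) while Klf2 fell.

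Genes of the routes that induce Klf9, Klf10 and Klf11 were read in the same way. The shares of all genes that rose and fell were 21.6% and 15% at day 6, 18% and 16.7% in control wounds at 6 h and 16.5% and 14.3% at 12 h. Of 10 glucocorticoid-responsive genes 4 fell and 1 rose at day 6, with Zbtb16 (-4.23 ± 1.01), Tsc22d3 (-2.50 ± 0.59) and Per1 (-1.71 ± 0.27) falling along with Klf9. In post-imiquimod wounds 6 of 10 fell at 12 h, beside 17.3% of all genes, against 2 of 10 in control wounds, a difference between the 2 kinds of skin for which no gene of the list passed. Of 16 clock genes 10 fell at day 6, among them Hlf (-4.27 ± 0.60), Npas2 (-3.60 ± 0.38) and Nr1d1 (-2.64 ± 0.44), and none rose. In control wounds 5 fell and 1 rose at 6 h and 11 fell at 12 h. The hour of day at harvest is not given in the labels, and its part in the levels of Klf9 and the clock genes was not tested. Of 11 genes of the TGF-β pathway 1 rose (Skil, 1.23 ± 0.22) and 2 fell (Tgfb2, -2.60 ± 0.37, and Smad3, -1.04 ± 0.27) at day 6, and these 3 of 11 called were a smaller share than the 36.6% of all genes. In 6 h control wounds 4 rose and 3 fell, with Smad3 (1.82 ± 0.28) higher and Skil (-1.39 ± 0.22) lower, beside falls of both Klf10 and Klf11.

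Genes of the barrier and of growth, on which Klf4 and Klf5 are known to act, were counted last, beside the same shares of all genes (21.6% higher and 15% lower at day 6, 18% and 16.7% in 6 h control wounds). Of 19 barrier genes 10 rose and 2 fell at day 6, with Sprr2d (10.04 ± 1.01), Rptn (5.39 ± 1.08) and Tgm1 (5.22 ± 1.26) higher, while the level of Klf4 did not pass. In 6 h control wounds 7 fell and 1 rose, with Tgm3 (-2.87 ± 0.70) and Krt10 (-2.27 ± 0.53) lower and Sprr2a3 (2.59 ± 0.78) higher. Of 8 growth genes 2 rose and 1 fell at day 6, with Ccnb1 (1.12 ± 0.27) and Mki67 (1.01 ± 0.27) higher and Ccnd2 (-1.83 ± 0.32) lower, so 3 of 8 were called, near the 36.6% of all genes. In 6 h control wounds 3 fell, Myc (-1.51 ± 0.25), Cdkn1a (-1.15 ± 0.29) and Cdkn1b (-0.67 ± 0.21). The lists were chosen with results of these data known, so their counts are descriptions.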

How the data were processed

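RNA-seq of 16 libraries was used, and 12 chromatin accessibility samples were left aside. The labels' protocols name Trizol extraction and an Illumina TruSeq library kit. The submitters' processing notes name STAR and the build mm10, with no version. Deposited values are raw counts per gene, as the authors made them, with no normalization. The strand setting is not given, so the counts were read as unstranded, and reads of overlapping or antisense genes cannot be told apart. Gene IDs were matched to GRCm38 symbols (47224 of 47729).

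CPM is a count divided by the library total, without TMM scaling, and overlaps between libraries were judged on it. Tests used edgeR 4.0.16 in R 4.3.3 (TMM scaling, filterByExpr, robust quasi-likelihood F test, Benjamini-Hochberg adjustment over 17299 genes, threshold 0.05), in 1 fit of 8 group means with 8 residual degrees of freedom. The SE is the log2 change divided by the root of F. An exact two-sided permutation test of 2 against 2 libraries cannot go below 0.333. On simulated counts for the day 6 comparison, 53% of 100 genes changed 2-fold and 93% of 100 genes changed 4-fold were recovered, with 10 unchanged genes called among 17299. Replicates correlated at 0.967 to 0.990 across genes and differed by more than counting noise. Same-numbered libraries of a time point deviated together (r of 0.220, 0.452, 0.539 and 0.323), so the number was also fitted as a block. Other alternatives were RLE scaling, no low-count filter, DESeq2 1.42.0, the compared libraries alone, thinning to 23623968 counts, and leaving out libraries. Named genes are the members, up to 3 called genes per list and comparison with the greatest change, other Klf and Sp genes, and the 3 genes with the highest r to each member among genes whose mean reached 2 log2 CPM (prior count 2). A gene that this rule names in wounds is not reported here, though counts over its list include it. Atf3 and Fos levels were added after their values were seen. Cyr61 and Ctgf were found as Ccn1 and Ccn2. The members and lists were chosen with earlier results of these data known. Statements of precision from counts cover counting error only.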

Additional observations from a re-analysis of the deposited data

Results flagged for a closer look

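The imiquimod effect on 5 members differed between day 6 and day 30 by a test of the difference itself (interaction term, edgeR). The log2 difference, day 6 minus day 30, was -3.30 for Klf9, -2.53 for Klf2, -1.67 for Klf11, 1.75 for Klf7 and 1.83 for Klf10. The day 6 and day 30 effects of each gene rest on 4 libraries each. Groups of 2 libraries are too small for a test of single samples that stand apart.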

How the results depend on the processing

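Of 61 calls of a member in a comparison, 47 were kept in every alternative that was run, and none changed sign. Among the 109 member changes that were not called, 43 had another sign in at least 1 alternative, so their direction is not given as a result. The count of members called moved from 0 to 1 without the low-count filter for prior imiquimod at 6 h of wounding. The member was Klf2, and this fit called 1.43% of its 30802 genes. For 12 h against 6 h wounds in control skin the count moved from 0 to 2 without the filter, to 2 with DESeq2 and to 1 with the replicate block. These fits called 3.18%, 4.03% and 7.49% of all genes. In post-imiquimod skin the count moved from 0 to 2 without the filter and to 1 with the compared libraries alone, beside 2.03% and 0.896% of all genes. Leaving out 1 library leaves 1 library in its group, so counts of members are not given for these fits. With 1 library left out at a time, the log2 change with imiquimod at day 6 ran from -4.3 to -2.51 for Klf9 and -3.05 to -2.11 for Klf2. It ran from -2.01 to -1.61 for Klf11, 1.65 to 2.26 for Klf7 and 1.48 to 1.85 for Klf10. Without both day 30 libraries numbered 1, which held Y-linked reads, the control wound changes were -1.19 for Klf9 at 6 h and -0.70 for Klf13 at 12 h. With all libraries they were -1.38 and -0.75. Both calls were lost in this fit, as given with their results. With day 6 control as the reference, added after the data were seen, the 6 h count was 8 without the filter and 8 with the compared libraries alone. These fits called 22.6% and 36.1% of all genes. The replicate block gave 6 members at day 6, 8 and 10 in control wounds at 6 h and 12 h, 9 and 10 in post-imiquimod wounds and 6 for the difference of the imiquimod effect. It called more of all genes too, 48.9% at day 6 (36.6% without it), 46% and 42.6% in control wounds (34.7% and 30.8%), 49.8% and 48.4% in post-imiquimod wounds (38.7% and 37.7%) and 34.3% for that difference (22.5%). Every member call that it changed was an added one, given beside its result, those with day 6 control as the reference included. Thinning moved the median log2 change of all genes at day 6 from 0.10 to -0.01.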
